A study of Homo sapiens with 4 samples.

Results

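The genes described here are 46 genes that carry out, promote or restrain DNA replication and mitosis, picked by name and not by their values. They are part of 61544 genes in the count table of 4 RNA-seq libraries from the colorectal cancer cell lines HT29 and HCT116. Each line gave 1 library after 24 h with lipopolysaccharide (LPS, a component of the bacterial outer membrane) at 1 ug/mL and 1 control library, so that the groups were HT29 with LPS, HT29 control, HCT116 with LPS and HCT116 control. The study used the cultures as an in vitro inflammatory model of intestinal epithelium. No genetic change was made in either line, and the labels name no repeat culture, so a difference within a line has no replicate check. All 46 genes had a mean of at least 1 CPM (counts scaled to the TMM-normalized library total) in both lines. The lowest means were 6.32 CPM for the cyclin gene CCNE2 in HT29 and 11.0 CPM for the phosphatase gene CDC25C in HCT116.

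A dividing cell copies its DNA in S phase and separates the copies in mitosis. In G1, D-type cyclins with CDK4 and cyclin E with CDK2 phosphorylate the retinoblastoma protein, which releases E2F factors to switch on replication genes, and CDK inhibitors oppose this step. Later, the MuvB complex with B-MYB and FOXM1 switches on mitotic genes through a promoter element called the CHR, while the p53 target p21 leads to their repression. Because transcripts of these genes accumulate in cycling cells, their summed level is often read as a measure of proliferation. In bulk RNA, fewer cycling cells and less RNA per cycling cell cannot be told apart.

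Total counts ran from 19105058 to 21268959 per library, and the 46 genes took 0.818% of counts in HT29 with LPS, 0.797% in HT29 control, 0.617% in HCT116 with LPS and 0.655% in HCT116 control. The mitochondrial genome took 4.29% of counts in HT29 with LPS and 3.75% in its control, against 7.16% in HCT116 with LPS and 5.01% in its control. Of 8 colon epithelium markers, EPCAM, KRT8, KRT18, KRT19 and CDH1 had from 1676 to 219634 counts per library, while VIL1 and LGALS4 had at most 10 counts in each HCT116 library. CDX2, an intestinal transcription factor, had 39 counts in HT29 with LPS and 18 in its control, against 572 and 474 in HCT116 with LPS and control. Of 12 markers of leukocytes, fibroblasts and endothelium, CD3E, COL1A2, DCN and CDH5 were at 0 counts in all 4 libraries, and the others had at most 140 counts per library except the fibroblast collagen gene COL1A1, with 1999 counts in HCT116 with LPS and 2225 in its control. Of 6 LPS response genes, all 6 had a mean of at least 1 CPM in HT29 and 3 in HCT116. Their median log2 ratio of LPS over control was 1.21 in HT29, with 5 ratios above 0 and 1 below. In HCT116 the median was 0.0099, with 2 ratios above 0 and 1 below. The 95% counting intervals of these 3 ratios, which cover counting error only, all included 0. CXCL1 had 521 counts in HT29 with LPS and 97 in its control. In HCT116, where its mean was below 1 CPM, CXCL1 had 7 counts with LPS and 19 in the control.

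The promoter sequences of 7 of the 46 genes, chosen with their LPS ratios known, are printed first. They come from RefSeq on GRCh38.p14, each running from 250 bases before to 50 bases after an annotated start. RefSeq windows were matched for 35 of the 46 genes, with 52 windows in all. Capitals mark, on either strand, a CCAAT box (CCAAT), a CHR (TTTGAA or TTCGAA) or an E2F element (TTTGGCGC, TTTGCCGC, TTTCGCGC or TTTCCCGC). A CHR and a CCAAT box can share bases, as in MKI67. The first 3 genes were lower in HCT116 with LPS than in its control: CDK1 (chr10:60778228-60778527, plus strand), the kinase of mitosis, CCNB1 (chr5:69166900-69167199, plus strand), its cyclin partner, and TOP2A (chr17:40417847-40418146, minus strand), the topoisomerase that untangles sister DNA.
CDK1: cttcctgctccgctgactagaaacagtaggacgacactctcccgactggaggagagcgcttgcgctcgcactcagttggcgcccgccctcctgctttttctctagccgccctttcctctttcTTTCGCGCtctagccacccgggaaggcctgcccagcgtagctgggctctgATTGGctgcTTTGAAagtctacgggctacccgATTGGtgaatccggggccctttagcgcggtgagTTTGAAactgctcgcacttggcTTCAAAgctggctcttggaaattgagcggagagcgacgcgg
CCNB1: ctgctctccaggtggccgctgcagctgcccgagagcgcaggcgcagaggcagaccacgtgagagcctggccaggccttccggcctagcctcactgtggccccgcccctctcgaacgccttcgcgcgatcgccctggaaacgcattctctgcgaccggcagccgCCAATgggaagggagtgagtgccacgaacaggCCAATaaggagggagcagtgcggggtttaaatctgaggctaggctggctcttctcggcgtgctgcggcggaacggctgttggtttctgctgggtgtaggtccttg
TOP2A: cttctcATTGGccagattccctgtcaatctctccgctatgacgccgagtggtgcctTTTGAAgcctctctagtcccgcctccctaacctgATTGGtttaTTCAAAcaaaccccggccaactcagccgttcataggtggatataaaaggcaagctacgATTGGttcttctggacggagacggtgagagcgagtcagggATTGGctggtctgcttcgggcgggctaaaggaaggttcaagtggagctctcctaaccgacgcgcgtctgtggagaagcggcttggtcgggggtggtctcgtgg

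The next 3 genes also carry CCAAT boxes, each with a CHR, but had ratios above 0 in HCT116 with LPS, for CCNB2 with an interval that included 0: CCNB2 (chr15:59104896-59105195, plus strand), the other B-type cyclin, PLK1 (chr16:23678639-23678938, plus strand), a kinase of spindle assembly, and MKI67 (chr10:128126374-128126673, minus strand), which codes for the Ki-67 protein that coats mitotic chromosomes.
CCNB2: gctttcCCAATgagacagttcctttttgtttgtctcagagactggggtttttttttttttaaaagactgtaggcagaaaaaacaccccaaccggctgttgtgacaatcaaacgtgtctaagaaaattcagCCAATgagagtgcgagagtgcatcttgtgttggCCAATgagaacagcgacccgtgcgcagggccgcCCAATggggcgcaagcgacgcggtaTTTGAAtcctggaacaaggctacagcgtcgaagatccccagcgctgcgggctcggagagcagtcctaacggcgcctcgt
PLK1: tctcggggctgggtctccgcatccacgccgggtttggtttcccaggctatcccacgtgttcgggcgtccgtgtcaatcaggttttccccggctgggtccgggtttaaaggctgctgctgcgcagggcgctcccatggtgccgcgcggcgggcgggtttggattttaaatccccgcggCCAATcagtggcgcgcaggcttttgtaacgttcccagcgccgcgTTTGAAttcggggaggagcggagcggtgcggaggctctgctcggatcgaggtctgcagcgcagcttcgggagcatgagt
MKI67: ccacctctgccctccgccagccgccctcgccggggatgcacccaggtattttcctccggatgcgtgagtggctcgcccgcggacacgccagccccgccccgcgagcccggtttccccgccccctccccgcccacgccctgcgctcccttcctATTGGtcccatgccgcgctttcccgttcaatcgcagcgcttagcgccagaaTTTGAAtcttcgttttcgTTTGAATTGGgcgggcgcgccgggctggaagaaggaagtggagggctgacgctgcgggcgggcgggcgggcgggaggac

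CDKN2A is shown because it had the lowest adjusted p of the 46 genes for LPS. Its first start (chr9:21995275-21995574, minus strand) lies upstream of its second (chr9:21974808-21975107, minus strand). The locus codes for the CDK4 inhibitor p16INK4a and for ARF from different first exons, and counts per gene cannot be split between them. Neither window holds any of the 3 elements.
CDKN2A, first start: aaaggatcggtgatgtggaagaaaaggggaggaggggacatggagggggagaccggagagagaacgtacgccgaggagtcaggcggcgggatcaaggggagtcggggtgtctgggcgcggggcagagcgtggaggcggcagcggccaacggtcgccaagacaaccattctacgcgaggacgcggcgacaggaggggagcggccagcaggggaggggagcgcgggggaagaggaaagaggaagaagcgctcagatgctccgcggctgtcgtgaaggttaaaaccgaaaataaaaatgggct
CDKN2A, second start: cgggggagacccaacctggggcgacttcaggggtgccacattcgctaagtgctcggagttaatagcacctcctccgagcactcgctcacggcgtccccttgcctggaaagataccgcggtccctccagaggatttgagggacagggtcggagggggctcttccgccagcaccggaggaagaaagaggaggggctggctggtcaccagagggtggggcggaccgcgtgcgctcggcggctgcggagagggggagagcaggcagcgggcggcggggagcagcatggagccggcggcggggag

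A CCAAT box was found in 38 of the 52 windows, 73.1%, against 34.6% of all 35116 RefSeq windows of this length. A CHR was found in 17 windows (32.7%, against 16.4% of all) and an E2F element in 12 (23.1%, against 3.32%). The elements were spread unevenly over the roles. E2F elements stood in 6 of the 11 windows of replication licensing genes, and a CHR in all 4 windows of spindle checkpoint genes but in none of the 8 windows of G1/S genes. In PLK1 and CCNB2 the CHR began 29 bases before the start. A match is only a match of letters in this window.

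To compare genes, levels were taken per length as RPKM, computed here from the normalized counts and the deposited gene length. The plot of RPKM by library shows them for every gene. PCNA, the sliding clamp of the replication fork, had the highest level of the 46 genes in both lines, with 219 RPKM in HT29 with LPS and 229 in its control, and 171 RPKM in HCT116 with LPS and 184 in its control. CCND1, which codes for cyclin D1, ranked second in HCT116 but 25th in HT29, and CCNE2 was lowest in each line.

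**Figure D1:**
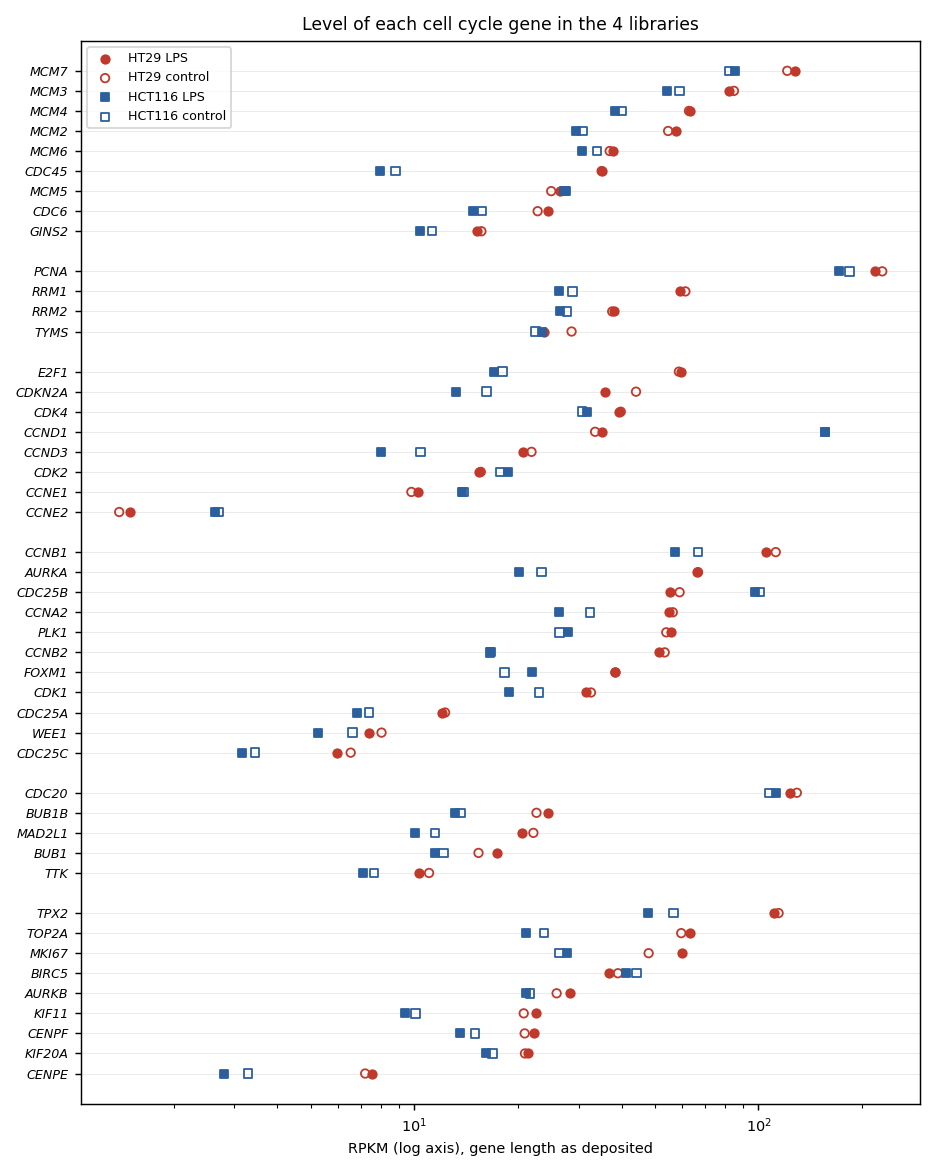
Level of each of the 46 genes in RPKM on a log axis, grouped by role, with HT29 in red circles and HCT116 in blue squares and LPS libraries filled. PCNA lies farthest right in both lines, and for most genes the line separates the points more than LPS does.

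In HT29, LPS left the 46 genes close to where all genes were. Their median log2 ratio of LPS over control was -0.0079, against -0.0076 for all 13201 measured genes, with 22 ratios above 0 and 24 below. None passed 0.58 in either direction, a size that 3.50% of all genes passed upward and 2.70% downward. With a minimum of 5 CPM, which all 46 genes reached, only 60 of 10386 genes passed it upward and 73 downward. A 95% counting interval, which covers counting error only, lay above 0 for 11 of the 46 (15.9% of all genes) and below 0 for 9 (18.5% of all genes). Among genes of at least 50 CPM, a minimum chosen after the data were seen because deep genes have short intervals, these were 11 and 9 of 41 members, against 20.9% and 28.0% of all such genes. The share with an interval below 0 was thus near that of all genes.

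Chromosome and spindle genes had the highest median ratio of the 6 roles in HT29, 0.081, with 7 of 9 ratios and 5 intervals above 0. With trends with length and GC content removed, their median was 0.058 with 4 intervals above 0, and that of replication licensing genes was higher, 0.062. MKI67 had the largest ratio of the 46, with 769 CPM in HT29 with LPS and 616 CPM in its control (log2 ratio 0.32, interval 0.28 to 0.36). TOP2A had 402 CPM in HT29 with LPS and 380.1 CPM in its control (log2 ratio 0.081, interval 0.034 to 0.13). CENPF, a kinetochore protein of G2 and mitosis, had 260.0 CPM in HT29 with LPS and 244 CPM in its control (log2 ratio 0.094, interval 0.036 to 0.15). AURKB, the kinase of the chromosomal passenger complex, had 63.7 CPM in HT29 with LPS and 58.1 CPM in its control (log2 ratio 0.13, interval 0.014 to 0.25), while its partner BIRC5, or survivin, lay on the other side with 141 CPM in HT29 with LPS and 149 CPM in its control (log2 ratio -0.083, interval -0.16 to -0.0060). The spindle checkpoint, which holds cells until every chromosome is attached, was also split. BUB1, a checkpoint kinase, had 109.6 CPM in HT29 with LPS and 96.8 CPM in its control (log2 ratio 0.18, interval 0.087 to 0.27), and its relative BUB1B had a log2 ratio of 0.12. MAD2L1, the MAD2 protein that inhibits CDC20, had 114 CPM in HT29 with LPS and 122 CPM in its control (log2 ratio -0.11, interval -0.19 to -0.020).

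Replication licensing genes, the MCM helicase and the factors that load and start it, had 7 of 9 ratios above 0 in HT29, 4 of them with an interval above 0 and none below. These 4 were MCM2, MCM5, MCM7 and CDC6, the helicase loader, with log2 ratios from 0.071 to 0.10. Mitotic entry genes had 10 of 11 ratios below 0 in HT29, though of small size, with a median of -0.047 and 3 intervals below 0, in CCNB1, CDC25B and WEE1. With trends with length and GC content removed, 6 of the 11 were below 0, the median was -0.0047 and 2 intervals lay below 0. CDC25B, a phosphatase that activates CDK1, had 215 CPM in HT29 with LPS and 230.2 CPM in its control (log2 ratio -0.097, interval -0.16 to -0.035). CDC25C, of the same family, had 19.8 CPM in HT29 with LPS and 21.7 CPM in its control (log2 ratio -0.13, interval -0.34 to 0.074), so that its interval included 0, as did those of 26 of the 46 genes in HT29.

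The 2 genes farthest below 0 in HT29 were CDKN2A and TYMS. CDKN2A (chr9:21967752-21995301, minus strand, protein coding) had 139 CPM in HT29 with LPS and 171 CPM in its control (log2 ratio -0.30, interval -0.38 to -0.23). TYMS, thymidylate synthase, had 57.7 CPM in HT29 with LPS and 69.3 CPM in its control (log2 ratio -0.26, interval -0.38 to -0.15). Of the exonic bases of TYMS, 39.9% overlap ENOSF1 on the opposite strand, which had 1763 counts in HT29 with LPS and 1387 in its control. No source used here gives the strand setting of the counting, and reads of the overlap cannot be assigned to 1 gene. Genes on the opposite strand also cover 44.2% of the exonic bases of CDK4, 37.0% of CCNE2, 23.6% of MCM2, 15.9% of FOXM1 and 15.3% of CDKN2A.

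**Figure D2:**
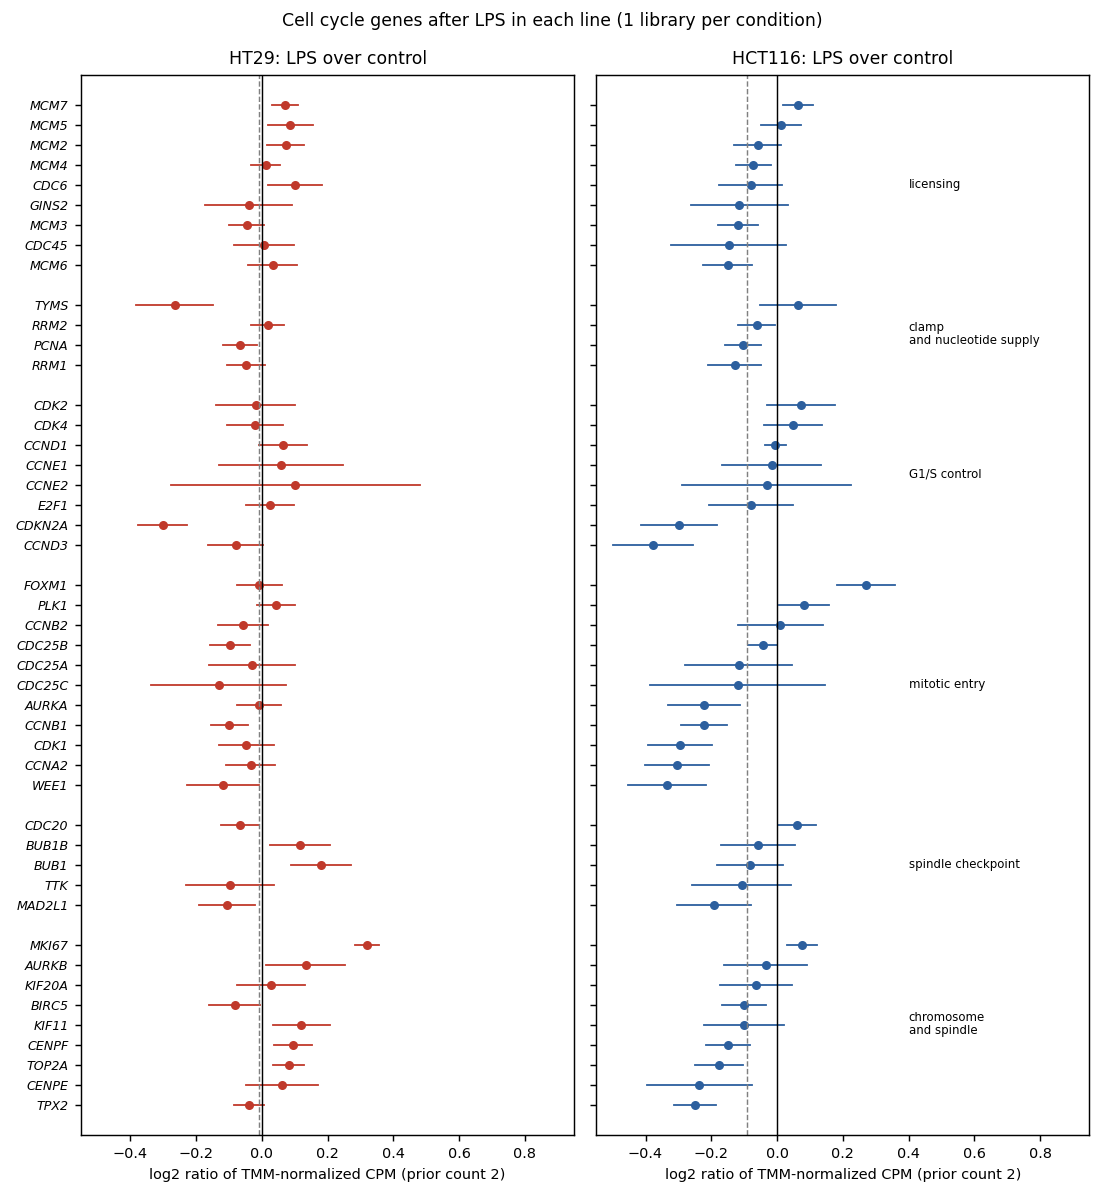
Log2 ratio of LPS over control for each gene in HT29 (left) and HCT116 (right), on TMM-normalized CPM (prior count 2), ordered by role. Points are single ratios, bars the 95% counting intervals, and the dashed line the median of the 46 genes, -0.0079 in HT29 and -0.092 in HCT116.

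In HCT116, most of the 46 genes were slightly lower with LPS. The median log2 ratio was -0.092, against -0.0025 for all 14337 measured genes, with 36 ratios below 0 and 10 above. None passed 0.58, which 3.56% of all genes passed upward and 2.34% downward. With a minimum of 5 CPM, which all 46 genes reached, only 73 of 11230 genes passed it upward and 42 downward. The interval lay below 0 for 20 of the 46 genes (18.2% of all genes) and above 0 for 5 (17.0% of all genes). Among genes of at least 50 CPM the interval lay below 0 for 19 of 35 members, against 28.0% of all such genes, and above 0 for 5, against 22.5%. The summed level of the 46 genes was 5906 CPM in HCT116 with LPS and 6157 CPM in its control, against 8577 CPM in HT29 with LPS and 8442 CPM in its control. Beside this, the mitochondrial share was higher in the HCT116 LPS library, as given above, and its part in the result was not tested.

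Mitotic entry genes had the lowest median ratio of the 6 roles in HCT116, -0.12, with 8 of 11 ratios and 6 intervals below 0. CDK1 had 73.4 CPM in HCT116 with LPS and 90.1 CPM in its control (log2 ratio -0.30, interval -0.39 to -0.20). CCNA2, cyclin A2, had 72.1 CPM in HCT116 with LPS and 88.9 CPM in its control (log2 ratio -0.30, interval -0.40 to -0.21). CCNB1 had 139 CPM in HCT116 with LPS and 162 CPM in its control (log2 ratio -0.22, interval -0.29 to -0.15). These 3 genes code for CDK1 and for cyclins that it binds. WEE1, the kinase that holds CDK1 inactive, stood with them at 48.5 CPM in HCT116 with LPS and 61.2 CPM in its control (log2 ratio -0.33, interval -0.45 to -0.22), and so did AURKA, the centrosome kinase, at 58.8 CPM in HCT116 with LPS and 68.6 CPM in its control (log2 ratio -0.22, interval -0.33 to -0.11). The group did not move as 1 block. FOXM1, the transcription factor of the mitotic programme, had the highest ratio of the 46 genes, with 108 CPM in HCT116 with LPS and 89.8 CPM in its control (log2 ratio 0.27, interval 0.18 to 0.36). PLK1 had 133 CPM in HCT116 with LPS and 126 CPM in its control (log2 ratio 0.083, interval 0.0073 to 0.16). CCNB2 had 45.9 CPM in HCT116 with LPS and 45.6 CPM in its control (log2 ratio 0.010, interval -0.12 to 0.14), an interval that includes 0. The 3 CDC25 phosphatases lay between -0.12 and -0.044.

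Chromosome and spindle genes had 8 of 9 ratios below 0 in HCT116, with 5 intervals below 0 and a median of -0.10. TPX2, which activates AURKA on the spindle, had 172 CPM in HCT116 with LPS and 204 CPM in its control (log2 ratio -0.25, interval -0.31 to -0.19). CENPE, a kinetochore motor, had 27.7 CPM in HCT116 with LPS and 32.6 CPM in its control (log2 ratio -0.24, interval -0.40 to -0.077). TOP2A had 134 CPM in HCT116 with LPS and 152 CPM in its control (log2 ratio -0.18, interval -0.25 to -0.10), and CENPF a log2 ratio of -0.15. MKI67 was the 1 gene of the group above 0, with 357 CPM in HCT116 with LPS and 339 CPM in its control (log2 ratio 0.076, interval 0.030 to 0.12). KIF11, KIF20A and AURKB had intervals that included 0. In the spindle checkpoint 4 of 5 genes were below 0, but only the interval of MAD2L1 was, with 55.5 CPM in HCT116 with LPS and 63.4 CPM in its control (log2 ratio -0.19, interval -0.31 to -0.080). CDC20, the activator of the anaphase-promoting complex, had 226 CPM in HCT116 with LPS and 217 CPM in its control (log2 ratio 0.062, interval 0.0036 to 0.12).

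Of the 9 licensing genes 7 were below 0 in HCT116, with the intervals of MCM3, MCM4 and MCM6 below 0 and that of MCM7 above it. MCM6 had the lowest ratio of the 6 MCM subunits, with 127 CPM in HCT116 with LPS and 141 CPM in its control (log2 ratio -0.15, interval -0.23 to -0.076), and the products of all 6 form a single ring. CDC45 and GINS2, which join the ring to make the active helicase, had ratios of -0.15 and -0.11 with intervals that included 0. Of the clamp and nucleotide supply genes, PCNA had 240.1 CPM in HCT116 with LPS and 258 CPM in its control (log2 ratio -0.10, interval -0.16 to -0.049). The ribonucleotide reductase subunits RRM1 and RRM2 had ratios of -0.13 and -0.062, both with an interval below 0. TYMS had 56.9 CPM in HCT116 with LPS and 54.4 CPM in its control (log2 ratio 0.063, interval -0.053 to 0.18).

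G1/S genes were the least moved group in HCT116, with a median of -0.024, apart from 2 genes. CCND3, which codes for cyclin D3, had the lowest ratio of all 46 genes with 46.2 CPM in HCT116 with LPS and 60.0 CPM in its control (log2 ratio -0.38, interval -0.50 to -0.26). CDKN2A had 51.3 CPM in HCT116 with LPS and 63.0 CPM in its control (log2 ratio -0.30, interval -0.41 to -0.18). The other D-type cyclin of the list, CCND1, had 741 CPM in HCT116 with LPS and 744 CPM in its control (log2 ratio -0.0048, interval -0.036 to 0.027). CCNE1, CCNE2, CDK2, CDK4 and E2F1 all had intervals that included 0, with ratios between -0.079 and 0.072.

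Whether LPS moved a gene alike in both lines was tested with edgeR's quasi-likelihood test with the line as a block, in which the lines stand in for replicates. Benjamini-Hochberg adjustment over 14516 genes called none of the 46 genes, with 0.124% of all genes called higher and 0.0964% lower. At an unadjusted p under 0.05 the test had 1 gene higher, MKI67, and 6 lower, CDKN2A, CCND3, WEE1, CDK1, CCNA2 and CCNB1. Of all 14516 genes, 513 were higher and 588 lower at that unadjusted p. CDKN2A came nearest, with a log2 fold change of -0.30 (SE 0.069, edgeR adjusted p = 0.092), lower with LPS in both lines. Its call depended on the setting. DESeq2 called it (adjusted p = 0.0090, over the 4947 genes to which DESeq2 gave one), as did edgeR with a minimum of 5 CPM (adjusted p = 0.0084), with no filter (0.030) and without mitochondrial, ribosomal protein and histone genes (0.027), while edgeR with DESeq2 size factors (0.22), with library size alone (0.20) or with no block (1) did not.

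The ratios of the 46 genes had opposite signs in the lines in 24 genes. They were below 0 in both lines in 18 and above 0 in both in 4. Over all genes 51.8% of ratios were below 0 in HT29 and 50.5% in HCT116. The shares of all genes with these sign patterns were not counted, so the 24 is not read as particular to the 46. Intervals lay below 0 in both lines for PCNA, CDKN2A, CCNB1, CDC25B, WEE1, MAD2L1 and BIRC5, and above 0 in both for MCM7 and MKI67. The share of all genes with intervals on the same side in both lines was not counted. With trends with length and GC content removed, only CDKN2A, CDC25B, WEE1 and MKI67 of these kept such intervals. Those of PCNA, CCNB1, MAD2L1 and BIRC5 in HT29 and of MCM7 in HCT116 then included 0. The ratio in HT29 was above that in HCT116 in 36 of 46 genes, a count that was not made over all genes. The interval of the difference lay above 0 in 19 genes (13.1% of all genes) and below 0 in 3 (13.6% of all genes), TYMS, FOXM1 and CDC20. The difference of HT29 minus HCT116 was 0.26 (interval 0.17 to 0.34) for TOP2A, 0.24 (interval 0.19 to 0.30) for MKI67, 0.21 (interval 0.13 to 0.29) for TPX2 and -0.28 (interval -0.39 to -0.17) for FOXM1. With 1 library per group, the difference itself could not be tested.

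In HCT116 the ratios ran with base composition. Across all 14324 genes with a GC value, the Spearman correlation of the LPS ratio with transcript GC content was 0.23, and across the 46 genes it was 0.47, against 0.030 and -0.078 in HT29. These points come from the same libraries and genes are not independent replicates. The 46 genes have a median GC content of 47.9%, from 35.4% to 61.6%. The 23 genes on the lower side of that median had a median ratio of -0.13 in HCT116, with 22 below 0, against -0.052 for all genes on that side. The 23 genes on the upper side had a median of -0.034, against 0.042 for all genes there. With smooth trends with length and GC content removed, the median of the 46 genes in HCT116 was -0.083, with 36 ratios and 20 intervals below 0, and 2 intervals were above 0, those of FOXM1 and MKI67. The corrected ratios were -0.22 for CDK1, -0.25 for CCNA2, -0.43 for CCND3, -0.36 for CDKN2A and 0.21 for FOXM1. In HT29 the ratio ran with gene length instead, with a Spearman correlation of 0.17 over all genes and 0.40 over the 46, and the ratio of MKI67, a long gene, was 0.25 with the trends removed.

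**Figure D3:**
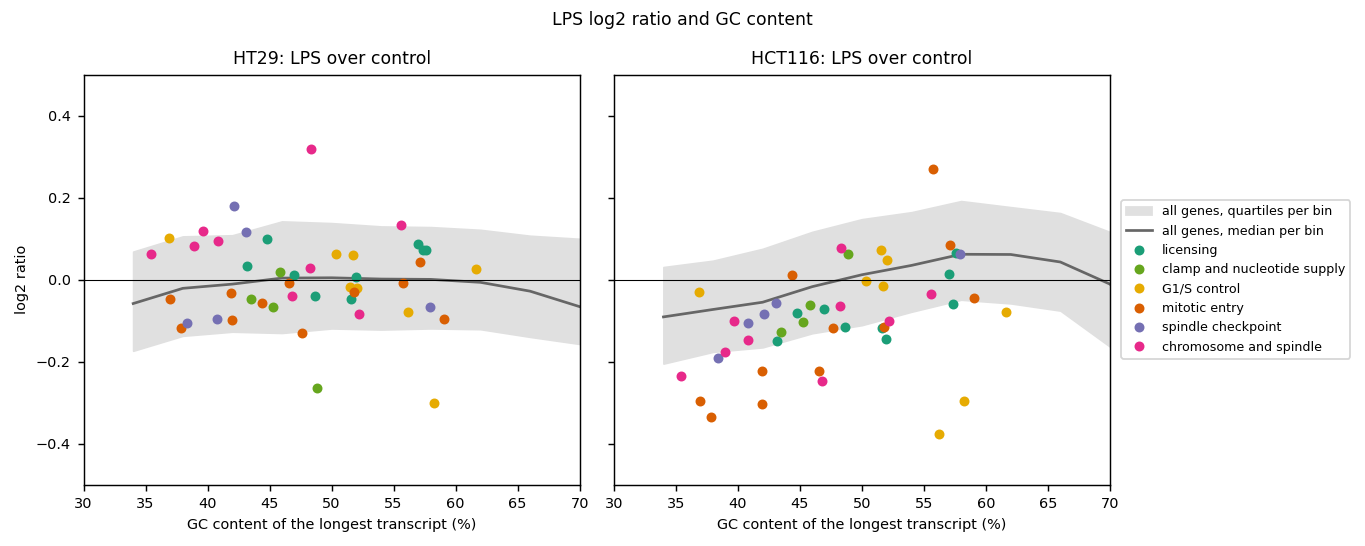
Log2 ratio of LPS over control against GC content of the longest transcript (%) in HT29 (left) and HCT116 (right). Points are the 46 genes coloured by role, the line and band the median and quartiles of all genes per bin. In HCT116 the points follow the upward slope of all genes and mostly sit below the line.

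By promoter element, the 15 genes with a CHR had a median of -0.10 in HCT116 and the 20 without it -0.092, and in HT29 the medians were 0.033 and -0.0073. The 28 genes with a CCAAT box had a median of -0.11 in HCT116, with 13 intervals below 0, and the 7 without it -0.057, with 2 intervals below 0. In HT29 these medians were -0.012 and 0.059. For the E2F element the medians with it (11 genes) and without it (24 genes) were -0.10 and -0.092 in HCT116, and -0.030 and 0.012 in HT29. These differences were not tested.

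Most of the 46 genes were higher in HT29 than in HCT116. With LPS as a block, edgeR called 38 genes higher in HT29 (38.0% of all genes) and 6 lower (38.6% of all genes), with a median log2 fold change of 0.63, against -0.016 for all genes. Both HT29 libraries lay above both HCT116 libraries in 39 genes (43.4% of all genes) and below them in 7 (44.3% of all genes). The median was 0.55 between the control libraries alone and 0.73 between the LPS libraries alone. This test has 1 residual degree of freedom, and the 2 libraries of a line, which differ in treatment, stand in for replicates. MCM5 and TYMS were not called.

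By role, the difference was largest in chromosome and spindle genes, with a median of 0.98, and mitotic entry genes, with 0.92, and smallest in G1/S genes, whose median was 0.053 with 4 called higher and 4 lower. CDC45 had the largest difference toward HT29, with 105 and 104 CPM in HT29 with LPS and control, against 23.7 and 26.3 CPM in HCT116 with LPS and control (log2 fold change 2.06, SE 0.083, edgeR adjusted p = 9e-15). E2F1, the activator of replication genes, had 161 and 158 CPM in HT29 with LPS and control, against 45.9 and 48.5 CPM in HCT116 with LPS and control (log2 fold change 1.76, SE 0.072). CCNB2 had 141 and 147 CPM in HT29 with LPS and control, against 45.9 and 45.6 CPM in HCT116 with LPS and control (log2 fold change 1.65, SE 0.072). The HT29 values of each of these genes lay at least 3-fold above those of HCT116. AURKA had 194 and 195 CPM in HT29 with LPS and control, against 58.8 and 68.6 CPM in HCT116 with LPS and control, and TOP2A 402 and 380.1 CPM in HT29 with LPS and control, against 134 and 152 CPM in HCT116 with LPS and control. MKI67 had 769 and 616 CPM in HT29 with LPS and control, against 357 and 339 CPM in HCT116 with LPS and control (log2 fold change 0.98, SE 0.073). CDKN2A, an inhibitor of the cycle, was also higher in HT29, with 139 and 171 CPM in HT29 with LPS and control, against 51.3 and 63.0 CPM in HCT116 with LPS and control (log2 fold change 1.44, SE 0.070).

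The 6 genes lower in HT29 were 4 cyclin and CDK genes of G1/S together with CDC25B and BIRC5. CCND1 (chr11:69641156-69654474, plus strand, protein coding) stood far apart, with 167 and 159.5 CPM in HT29 with LPS and control, against 741 and 744 CPM in HCT116 with LPS and control (log2 fold change -2.19, SE 0.070, edgeR adjusted p = 2.2e-16). CCNE2 had 6.55 and 6.10 CPM in HT29 with LPS and control, against 11.6 and 11.8 CPM in HCT116 with LPS and control (log2 fold change -0.89, SE 0.20, edgeR adjusted p = 0.00037), on few counts. INTS8, which overlaps CCNE2 on the opposite strand, had 1213 and 1049 counts in HT29 with LPS and control, against 1939 and 2358 in HCT116 with LPS and control, and its part in the CCNE2 counts was not tested. CCNE1 had 25.1 and 24.1 CPM in HT29 with LPS and control, against 33.8 and 34.2 CPM in HCT116 with LPS and control (log2 fold change -0.47, SE 0.11, edgeR adjusted p = 0.0011). In all 3 cyclins both HT29 libraries lay below both HCT116 libraries. CDC25B had 215 and 230.2 CPM in HT29 with LPS and control, against 382 and 394 CPM in HCT116 with LPS and control (log2 fold change -0.80, SE 0.065), opposite to its relatives CDC25A and CDC25C, which were higher in HT29. CDK2 (log2 fold change -0.23) and BIRC5 (-0.17) differed little.

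**Figure D4:**
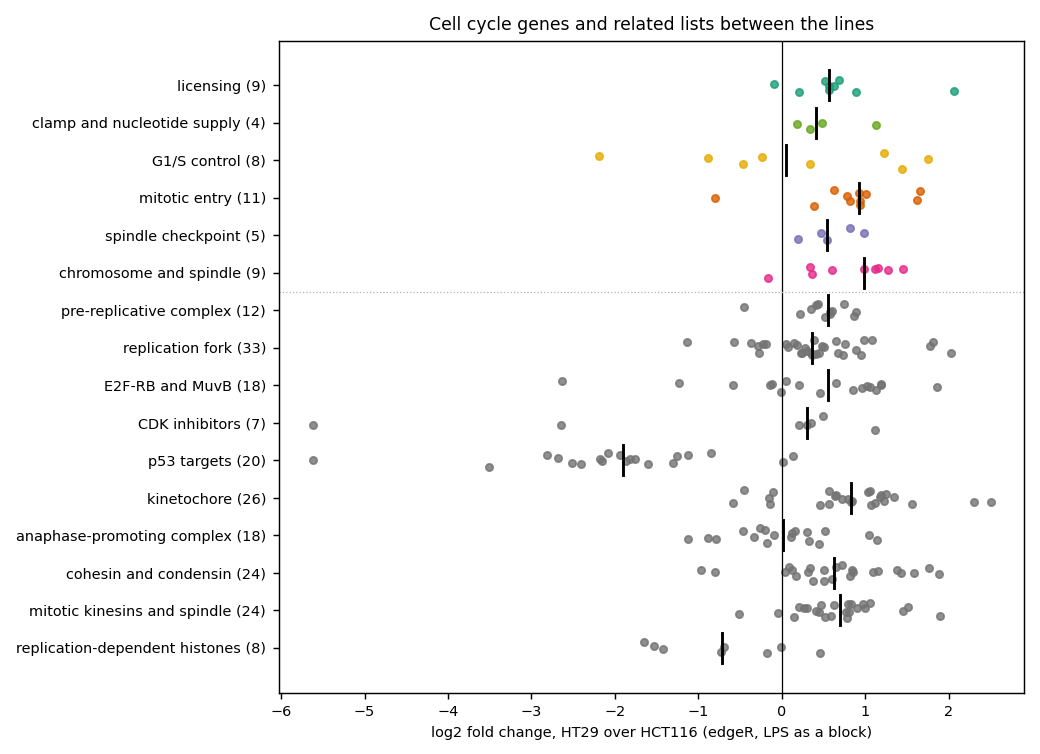
Log2 fold change of HT29 over HCT116 from edgeR with LPS as a block, for the 46 genes by role (coloured, above the dotted line) and for further gene lists (grey). Points are genes, bars are list medians, and numbers in parentheses are genes tested. Cyclin D1 is the G1/S point near -2, and the p53 targets lie mostly left of 0.

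Targets of p53 outside the 46 genes were mostly lower in HT29. HCT116 is known to carry functional p53 and HT29 a mutant form. The part of p53 in these values was not tested and cannot be told apart from other differences between the lines. Of 20 p53 targets, edgeR and DESeq2 each called 18 lower in HT29 and 0 higher, also at an unadjusted p under 0.05 in edgeR, where edgeR called 38.6% of all genes lower and 38.0% higher, with a median log2 fold change of -1.90. CDKN1A, which codes for p21, had 16.5 and 12.9 CPM in HT29 with LPS and control, against 745 and 698 CPM in HCT116 with LPS and control (log2 fold change -5.62, SE 0.091). With LPS its log2 ratio was 0.35 in HT29 and 0.094 in HCT116. CDKN1C, which codes for p57, had 214 counts in HCT116 with LPS and 88 in its control, with a log2 ratio 1.39, interval 1.05 to 1.79, and 16 counts in HT29 with LPS and 23 in its control.

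Among the further lists, 3 of mitotic genes also lay mostly below 0 in HCT116 with LPS. The anaphase-promoting complex list was nearer to all genes, with 11 of 18 ratios and 3 intervals below 0 and a median of -0.029. The E2F-RB and MuvB list had 13 of 18 ratios and 3 intervals below 0, with a median of -0.052. In each of these lists 16.7% of intervals lay below 0, against 18.2% of all genes. Ratios in HCT116 ran with GC content, as given above, and the trends were not removed for these lists. The part of GC content in their values was not tested. Of 24 cohesin and condensin genes, which hold and fold sister chromatids, 21 were below 0 in HCT116 with LPS, with 14 intervals below 0, none above and a median of -0.11, where over all genes 50.5% of ratios and 18.2% of intervals were below 0. NCAPG, a condensin subunit, had 65.0 CPM in HCT116 with LPS and 88.0 CPM in its control (log2 ratio -0.44, interval -0.54 to -0.34). CDCA5, or sororin, which protects cohesin, had a log2 ratio of -0.32. In HT29 the median of this list was 0.028, with 5 intervals above 0 and 3 below. Of 24 other mitotic kinesin and spindle genes, 11 intervals lay below 0 in HCT116 and none above, with ANLN, the cytokinesis scaffold anillin, at 99.6 CPM in HCT116 with LPS and 126 CPM in its control (log2 ratio -0.34, interval -0.42 to -0.26). Of 26 kinetochore genes, 9 intervals lay below 0 in HCT116 and none above. In HT29 the kinesin and spindle list had a median of -0.0099, with 5 intervals below 0 and 3 above. The kinetochore list had a median of -0.063 in HT29, with 6 intervals below 0 and 4 above. In the test over both lines edgeR called 0 genes of these 3 lists, with 7 lower and 0 higher at an unadjusted p under 0.05. Of all 14516 genes, 588 were lower and 513 higher at that unadjusted p. DESeq2 called 0 of the 40 genes of these lists to which it gave an adjusted p. Between the lines, 19 cohesin and condensin genes, 22 kinesin and spindle genes and 21 kinetochore genes were called higher in HT29, and 2, 0 and 2 lower, against 38.0% and 38.6% of all genes.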

How the data were processed

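RNA of HT29 and HCT116, each as 1 LPS and 1 control library, was sequenced. The authors deposited raw counts per gene with a gene length. Per the submitters' processing notes, reads were trimmed (cutadapt 1.9, Trimmomatic 0.39), aligned to hg38 (HISAT2 2.1.0) and counted (featureCounts 2.0.1). No source used here gives the strand setting or annotation release, and 61445 of 61544 gene IDs matched GENCODE 44. The genes and lists were chosen with earlier results of these data known.

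Counts were TMM-normalized in R 4.3.3 with edgeR 4.0.16. Log2 CPM ratios used a prior count of 2, with 95% Clopper-Pearson intervals, for genes averaging at least 1 CPM, and a size threshold of 0.58. Intervals cover counting error only, and no molecular identifiers are named. Tests used edgeR's quasi-likelihood method, with Benjamini-Hochberg adjusted p under 0.05 as a call, and were checked on simulated data. Values were given for the 6 genes with the largest ratios per line, the 6 highest and 6 lowest fold changes between lines, and CDKN2A, CCND1, CDK1, MKI67 and PCNA. Others were named after their values were seen. The longest transcript of each of the 46 genes was searched for copies (98% identity over 50% of its length, minimap2 2.31), and none had one. For 10 genes another place passed the length minimum at lower identity, up to 96.3% for CDC20. Alternatives were DESeq2 1.42.0, other normalizations, prior counts and filters, thinning, and trends removed.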

Additional observations from a re-analysis of the deposited data

Results flagged for a closer look

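For 3 genes the counting intervals of the LPS ratio lay on opposite sides of 0 in the lines. TOP2A and CENPF were above 0 in HT29 and below 0 in HCT116, with a difference of HT29 minus HCT116 of 0.258 and 0.242 on the log2 scale. CDC20 went the other way, with a difference of -0.129. With trends with length and GC content removed, TOP2A was the 1 of these 3 genes whose intervals still lay on opposite sides. CDC20 then had intervals that included 0 in both lines and CENPF in HT29. The share of all genes with intervals on opposite sides was not counted. Each group is 1 library, so the difference was not tested.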

How the results depend on the processing

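No called value changed sign under any alternative, but some values near 0 did. The HT29 median of the 46 genes was 0.0061 with library size alone and 0.011 with length and GC trends removed. CCNB2 in HCT116 was -0.015 with library size alone, -0.00048 without mitochondrial, ribosomal protein and histone genes and -0.011 with thinned counts. With the trends removed, CCNE2 in HCT116 was 0.043, and CCNA2, CDK1, FOXM1 and AURKA in HT29 were 0.027, 0.0078, 0.0014 and 0.035. With library size alone FOXM1 and AURKA in HT29 were 0.0064 and 0.0058. HCT116 intervals above 0 numbered 5, but 2 with library size alone, 3 without mitochondrial, ribosomal protein and histone genes, 2 with length and GC trends removed and 3 with counts thinned to the smallest library. HT29 intervals below 0 numbered 9, but 4 with the trends removed. The edgeR test over both lines called 0 of the 46 genes lower, but 1, CDKN2A, with no filter, with a minimum of 5 CPM, without those 3 gene classes and with DESeq2. Over all genes it called 18 higher and 14 lower, against 6 and 8 with DESeq2 size factors, 14 and 10 with library size alone, 58 and 45 with no filter, 78 and 58 with a minimum of 5 CPM, 39 and 38 without those classes, 45 and 36 with DESeq2, and 0 and 0 with no block. With library size alone, 35 of the 46 were called higher and 7 lower in HT29. Ratios past 0.58 numbered 462 above and 356 below over all genes in HT29, against 60 and 73 with a minimum of 5 CPM and 4967 and 3904 with no filter. In HCT116 they numbered 510 and 336, against 73 and 42 with that minimum and 3884 and 3674 with no filter. At a threshold of 1 they numbered 136 and 83 in HT29 and 119 and 89 in HCT116. No paired analysis was possible because each group is 1 library and the groups share only the column number 1, so that no pairs exist beyond the line block of the test itself. The causes were not tested.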

Other observations

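Of the genes in 4 other cell cycle lists, the test over both lines called 0 by edgeR and 0 by DESeq2. At an unadjusted p under 0.05 in edgeR, 5 were lower and 0 higher, against 588 and 513 of all 14516 genes. Trends with length and GC content were not removed for these lists. Of 33 replication fork genes, which copy the DNA behind the helicase, 7 intervals lay below 0 and 4 above in HT29 with LPS, and 11 below and 2 above in HCT116. Over all genes 18.5% lay below 0 and 15.9% above in HT29, and 18.2% and 17.0% in HCT116, so that the HT29 shares of this list, 21.2% and 12.1%, were near those of all genes. In HCT116, DNA2, a helicase and nuclease of Okazaki fragment processing, had 11.3 CPM in HCT116 with LPS and 16.3 CPM in its control (log2 ratio -0.53, interval -0.77 to -0.29). Of 12 genes of the pre-replicative complex, 1 interval lay below 0 and 2 above in HT29 with LPS, and 2 below and 1 above in HCT116. The list medians were -0.021 in HT29 and -0.080 in HCT116. GMNN, which codes for the licensing inhibitor geminin, had the lowest ratio of this list in HT29, -0.36, and -0.22 in HCT116. ORC2 had 0.24 in HT29 and -0.079 in HCT116. Of the 18 genes of the anaphase-promoting complex, 5 were called higher in HT29 than in HCT116 and 5 lower. Over all genes 38.0% were called higher and 38.6% lower. With LPS, 4 intervals of this list lay below 0 and 2 above in HT29, and 3 below and 1 above in HCT116. CDC16 had LPS ratios of -0.30 in HT29 and -0.25 in HCT116, while ANAPC4 had 0.25 in HT29 and -0.098 in HCT116. Of 38 replication-dependent histone genes, 7 in HT29 and 9 in HCT116 reached 1 CPM, with median ratios of -0.24 and 0.30.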
